A study of Mus musculus with 72 samples.

Results

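The comparison described here sets 6 libraries of dorsal hippocampus taken after a footshock paired with a cue against 6 libraries of dorsal hippocampus taken straight from the home cage, all from male mice labelled C57BL/6NJ (6NJ). The members were chosen by their labels alone, and they are 12 of the 72 libraries of the series. The series covers dorsal and ventral hippocampus of mice labelled C57BL/6J (6J) and 6NJ, in 3 conditions (home cage, cue alone, and shock with cue, named fear conditioning in the design). Tissue of the 2 handled conditions was collected 30 minutes after the session, and no genetic manipulation is named for any group. Another group of 6 dorsal hippocampus libraries labelled 6NJ, from mice given the cue alone, is used beside the comparison. No labelled group was handled without a cue, so handling, the conditioning chamber and the cue cannot be told apart in the comparison with home cage.

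The hippocampus is needed for memory of the place where a shock was received, and its dorsal end is known above all for spatial and contextual memory. When a neuron fires strongly, calcium entry and kinases such as ERK act on factors already bound to DNA (CREB and serum response factor), and a first wave of immediate early genes is transcribed within minutes without new protein being made. Some of these genes encode transcription factors (Fos, Egr and Nr4a families), others act directly at synapses (Arc, the short form of Homer1), and others are phosphatases and inhibitors that switch the kinase signal off. A stressful event also releases glucocorticoid hormone, which acts on its own set of target genes.

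The gene tables held between 35431021 and 47703347 counted reads per shock and cue library and between 34113210 and 42808835 per home cage library. Values below are counts-per-million values (CPM) of a gene. A gene is said to be called when its p, adjusted over all 19647 genes tested by the method of Benjamini and Hochberg, was under 0.05 in edgeR's quasi-likelihood test. Fold changes are on the log2 scale, each with its standard error (SE). Whether each library of a group is a mouse of its own litter, cage or day is not in the labels. The p-values measure only the spread between libraries within groups, estimated over all 36 dorsal libraries. The strain labels went against Nnt and Gabra2, 2 genes known to differ between the substrains. Nnt, which lacks exons in C57BL/6J, lay between 18.3 and 22.9 CPM in the 18 dorsal libraries labelled 6NJ and between 36.2 and 44.2 CPM in the 18 labelled 6J. Gabra2, known to be low in C57BL/6J, lay between 91.4 and 124 CPM under the 6NJ label and between 220 and 271 CPM under the 6J label. Wdfy1 and Crb1, of the same list of substrain genes, had medians of 20.8 and 1.03 CPM under the 6NJ label and 48.2 and 0.372 CPM under the 6J label, and no direction known for them was used. The strain is therefore given throughout as the label has it.

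After shock and cue, 451 genes were higher and 250 were lower than in the home cage. The 701 called genes were 3.57% of those tested, 2.3% higher and 1.27% lower. Most changes were small. The median size was 0.29 on the log2 scale among the higher genes and 0.22 among the lower ones, and 31 higher and 4 lower genes passed 1 on that scale. The 6 shock and cue libraries did not overlap the 6 home cage libraries for 575 genes, 2.93% of those tested. Protein-coding genes made up 599 of the 701. The median over all genes tested was 0.003.

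**Figure D1:**
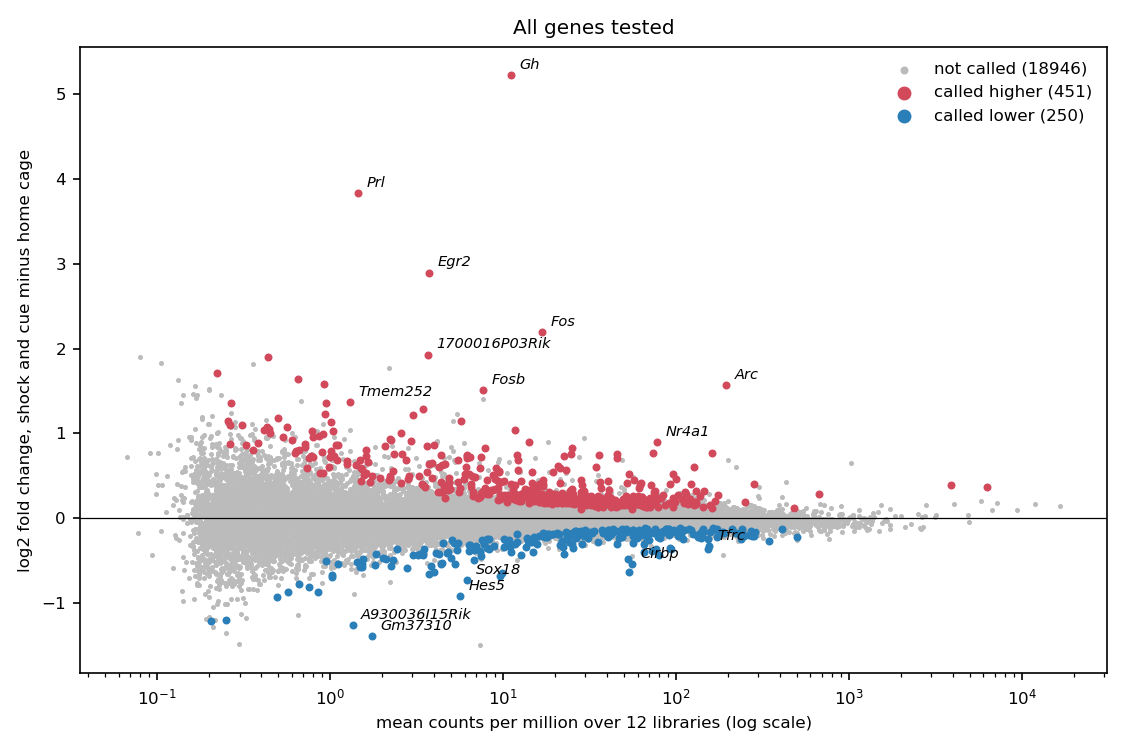
Log2 fold change of shock and cue minus home cage (vertical axis) against mean CPM over the 12 libraries (horizontal axis, log scale), 1 point per gene tested. Red points are the 451 genes called higher, blue points the 250 called lower; the early genes Egr2, Fos, Fosb and Arc stand above 1.5 and the lowest called gene is Gm37310 at -1.39.

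Among the 39 gene lists used here, leaving aside 4 added after the values were seen, those of immediate early transcription factors had the highest shares of called genes. The 39 lists were themselves chosen with earlier results of these data known, so their shares are not independent of the data. Of 10 genes of the AP-1 family, which bind DNA as Fos and Jun dimers, 6 were called higher and none lower, with a median log2 fold change of 0.691. Of 6 genes of the Egr zinc finger factors and their Nab corepressors, 5 were called higher, with a median of 0.522. All 3 Nr4a orphan nuclear receptors were called higher, with a median of 0.714.

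Fos measured 2.88, 5.58 and 9.52 CPM in the home cage libraries (lowest, median and highest) and 17.3, 25.6 and 38.6 CPM after shock and cue. The groups did not overlap, and the log2 fold change was 2.2 (SE 0.237, adjusted p 5.03e-07). Fosb, whose products dimerise with Jun proteins like Fos, went from 3.05, 4.1 and 4.69 CPM to 8.66, 11.4 and 13.7 CPM, again without overlap, a log2 change of 1.51 (SE 0.135, adjusted p 1.81e-09). Junb rose by 0.75 (adjusted p 4.13e-06), Fosl2 by 0.74 (1.4e-05), Maff by 1.03 (0.00507) and Atf3, a stress-induced member, by 0.64 (0.0228). The call of Atf3 was lost under 10 of 26 alternative settings and that of Maff under 3 of 25. Both genes were low. Maff had means of 0.576 and 0.454 CPM in home cage libraries numbered 41 and 42, and 1.1 and 1.01 CPM in shock and cue libraries numbered 37 and 39. For Atf3 these means were 0.931 and 1.02 CPM, and 1.7 and 1.34 CPM. Jun and Jund, the other two Jun genes, had log2 changes of 0.09 and -0.09 with adjusted p of 0.659 and 0.639. Their shock and cue libraries overlapped the home cage ones.

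Egr2 had the largest fold of the early factors. Its home cage libraries held 0.496, 0.778 and 1.36 CPM and the shock and cue libraries 3.97, 6.86 and 8.74 CPM, with no overlap and a log2 change of 2.89 (SE 0.228, adjusted p 2.37e-10). Egr1, the member most used as a marker of neuronal activity, went from 99.6, 125 and 136 CPM to 159, 202 and 233 CPM (0.76, SE 0.112, adjusted p 4.76e-05). Egr4 rose by 0.73 and Egr3 by 0.31. Nab2, which binds Egr proteins and represses their targets, rose by 0.23 with overlapping libraries (adjusted p 0.0277), a call lost under 10 of 26 alternative settings.

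Nr4a1 measured 46.8, 53.6 and 66.7 CPM in the home cage and 89.2, 104 and 111 CPM after shock and cue, a log2 change of 0.89 (SE 0.0926, adjusted p 8.43e-08). Nr4a2 rose by 0.71 (2.77e-06) and Nr4a3 by 0.4 (0.00159), and the libraries of the 2 groups did not overlap for any of the 3 receptors. Among its transcripts, Nr4a1-201 had a mean of 33.4 ± 2.57 estimated CPM in home cage libraries and 78.8 ± 8.65 in shock and cue libraries (SD, n = 6). A second coding transcript, Nr4a1-202, had means of 15.3 ± 3.31 and 15 ± 2.85.

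**Figure D2:**
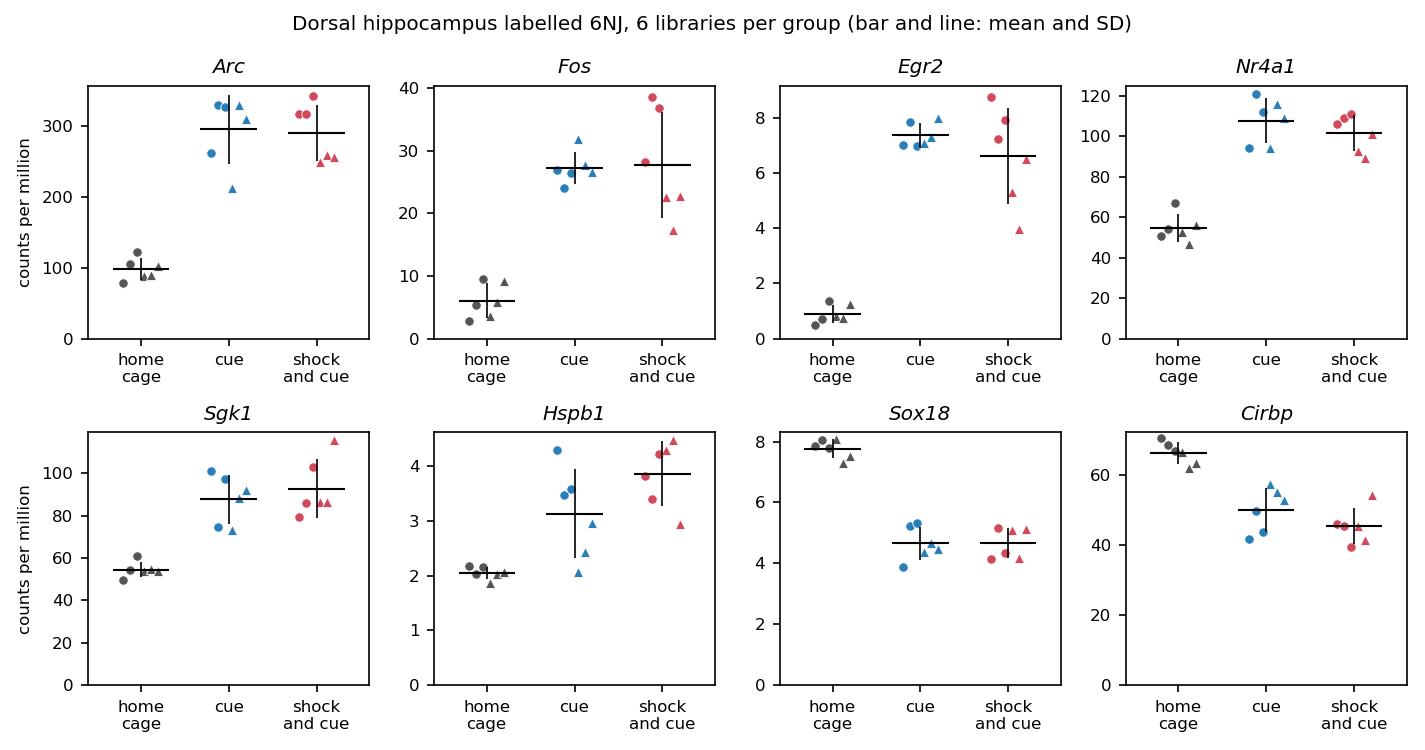
CPM (vertical axis) of 8 genes in the home cage, cue, and shock and cue libraries, 1 point per library; circles are the code numbers 41, 38 and 37, triangles 42, 40 and 39, and bars show mean and SD. Arc, Fos, Egr2, Nr4a1, Sgk1 and Hspb1 are higher and Sox18 and Cirbp lower in all 6 shock and cue libraries than in any home cage library.

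The promoters of 4 genes that rose are shown because they hold the letters that activity-dependent factors are known to bind. Each is the 250 bases before a RefSeq transcript start (build GRCm38.p6), 5′ to 3′ on the gene's strand. Capitals mark TGACG, the core of the cyclic AMP response element bound by CREB, on either strand; the CArG box of serum response factor; GCGGGGGCG, the letters bound by Egr proteins; and GAANNTTC, part of the heat shock element. Fos lies at chr12:85473640-85473889 on the plus strand, the Egr2 window at chr10:67537316-67537565 (plus), Nr4a1 at chr15:101266596-101266845 (plus) and Homer1 at chr13:93303507-93303756 (plus).
Fos: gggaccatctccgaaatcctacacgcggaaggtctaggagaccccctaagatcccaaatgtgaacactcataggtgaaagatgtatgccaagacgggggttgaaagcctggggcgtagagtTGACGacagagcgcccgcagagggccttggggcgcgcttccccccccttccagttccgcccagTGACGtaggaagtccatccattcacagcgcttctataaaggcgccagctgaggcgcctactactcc
Egr2: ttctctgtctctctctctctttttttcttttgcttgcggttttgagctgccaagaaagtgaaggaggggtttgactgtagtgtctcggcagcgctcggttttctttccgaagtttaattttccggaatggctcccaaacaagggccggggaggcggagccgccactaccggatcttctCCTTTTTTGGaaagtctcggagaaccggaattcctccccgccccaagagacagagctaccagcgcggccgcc
Nr4a1: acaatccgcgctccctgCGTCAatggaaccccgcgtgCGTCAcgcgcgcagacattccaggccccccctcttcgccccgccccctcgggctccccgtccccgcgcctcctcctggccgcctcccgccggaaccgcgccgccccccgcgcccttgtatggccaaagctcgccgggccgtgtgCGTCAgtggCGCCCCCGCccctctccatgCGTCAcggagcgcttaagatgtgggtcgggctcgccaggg
Homer1: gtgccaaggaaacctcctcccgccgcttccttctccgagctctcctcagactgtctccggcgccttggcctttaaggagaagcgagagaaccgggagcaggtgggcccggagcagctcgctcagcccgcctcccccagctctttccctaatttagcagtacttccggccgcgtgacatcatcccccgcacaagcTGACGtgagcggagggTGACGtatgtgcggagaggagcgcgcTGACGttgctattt
TGACG starts 129 and 66 bases before the start site of Fos, and 3 copies lie within 56 bases of the end of the Homer1 window shown. The reverse complement of TGACG occurs 4 times before Nr4a1, beside 1 reverse copy of GCGGGGGCG. The Egr2 window shown holds a CArG box 72 bases before the start. It is 1 of 5 Egr2 windows in the table and was picked after the matches were seen. Of the other Egr2 windows, 3 overlap one another and hold both TGACG and a CArG box, and 1, further upstream, holds neither. Homer1 has 2 windows, of which 1 is shown. The window shown ends directly before the start of transcript Homer1-207 (chr13:93303757), which was not called (adjusted p 0.932). The called transcripts Homer1-204 and Homer1-205 start further downstream, at 93304495 and 93305184, so the window is not directly before their starts. TGACG, counted on both strands, was in 24.3% of the 16408 such windows of genes tested. It was in 36.3% of 402 windows of genes called higher and in 19.7% of 244 windows of genes called lower. The full palindrome TGACGTCA, which contains TGACG, was in 2.36%, 5.22% and 2.05% of the same windows. In 24 windows of called AP-1, Egr, Nr4a and kinase feedback genes, which belong to 17 genes and in part overlap, TGACG was present in 66.7% of windows and in 13 of the 17 genes. Not every called gene of these lists has a window. The CArG box was in 2 of the 17 genes, Egr2 and Dusp5. Only exact matches within the 250 bases were counted, so a box further upstream would be missed. The 5 windows of that set with the box include 4 of Egr2, so their share is not set against the 1.21% of all windows of tested genes that hold it. GCGGGGGCG was in 4.45% of windows of tested genes and 4.73% of those of genes called higher. The letters TGANTCA and AGAACA were also counted. TGANTCA was in 4.65% of windows of tested genes, 2.49% of those called higher and 2.46% of those called lower. For AGAACA the shares were 11.3%, 9.2% and 13.1%. Neither was in any of the 24 windows above. The counts describe letters in the windows and not binding.

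Some genes known to restrain kinase signalling rose too. Of 18 genes of MAP kinase feedback, 6 were called higher and none lower, with a median of 0.11. Dusp1, a phosphatase of MAP kinases, measured 8.29, 8.96 and 14 CPM in the home cage and 12.1, 18.3 and 26.9 CPM after shock and cue, overlapping in the tails (0.9, SE 0.182, adjusted p 0.00323). Dusp5, which acts on ERK in the nucleus, went from 14.8, 19.1 and 20.8 CPM to 25, 31.6 and 36.7 CPM without overlap (0.76, adjusted p 0.000123). Spry4 (0.54), Dusp6 (0.35), Errfi1 (0.33) and Spred1 (0.32) made up the rest, Dusp6 acting on ERK in the cytoplasm, Spry4 and Spred1 on the Ras pathway and Errfi1 on the EGF receptor.

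Of 12 CREB-related genes, 4 were called higher, with a median of 0.027. Sik1, a kinase induced by CREB that holds back CREB's coactivators, went from 5.92, 7.7 and 9.14 CPM to 12.1, 15.3 and 20.1 CPM without overlap (1.04, SE 0.132, adjusted p 5.01e-06). Crem, whose inducible short form represses CREB targets, rose by 0.33 (adjusted p 0.000418), Atf1 by 0.23 (0.0133) and Creb1 itself by 0.16 (0.0352), a call lost under 12 of 26 alternative settings. The coactivators Crtc1, Crtc2, Crtc3, Crebbp and Ep300 were not called.

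Among 29 other early regulators, 11 were called higher and none lower. Ccn1 and Ccn2 entered that list in place of their older symbols after Ccn1 was seen to be called, and without them 10 of 27 were called higher. Klf2 rose by 0.72, Ier2 by 0.71, Ccn1 by 0.65, Btg2 by 0.59, Nfil3 by 0.59, Trib1 by 0.57, Csrnp1 by 0.51, Gadd45b by 0.43, Per1 by 0.38, Crem by 0.33 and Mcl1, a survival factor, by 0.32. Zfp36, an early gene in many cells, had medians of 4.19 and 4.12 CPM in home cage and shock and cue libraries, with an adjusted p of 0.97. Npas4, a transcription factor restricted to neurons, had 13, 13.6 and 22.2 CPM in the home cage and 14.8, 20.2 and 22.1 CPM after shock and cue. The groups overlapped and the gene was not called (0.34, SE 0.146, adjusted p 0.214). Its spliced transcript Npas4-201 had means of 8.32 ± 1.56 and 12.9 ± 2.41 estimated CPM (SD, n = 6) and was called (0.63, adjusted p 0.026). Outside the lists, Tiparp (0.56, adjusted p 5.43e-08) and Stk40 (0.38, 4.78e-06) were among the 15 higher genes with the smallest p, beside the zinc finger gene Zfp948 (0.4, 4.13e-06) and Rbm12b1 (0.56, 9.49e-07).

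Arc, which encodes a capsid-like protein that removes AMPA receptors from synapses, was the gene with the smallest p. Home cage libraries held 79, 96.6 and 122 CPM and shock and cue libraries 250, 289 and 343 CPM. The groups were well apart, and the log2 change was 1.57 (SE 0.121, adjusted p 2.37e-10). Of 35 genes of synaptic effectors and neuronal activity targets, 9 were called higher and 1 lower, with a median of 0.065. Arl4d rose by 0.74, Zdbf2 by 0.62, Homer1 by 0.61, Gpr3 by 0.47, Arl5b by 0.35, Syt4 and Frmd6 by 0.26 each and Fbxo33 by 0.16, and Lingo3 fell by 0.4, a call lost under 17 of 26 alternative settings. Nptx2, a later activity gene, was not called (-0.16, adjusted p 0.419). Bdnf, the main neurotrophin of the region, had 51.3, 53.8 and 62.3 CPM against 56.4, 62.4 and 67.2 CPM and was not called (0.18, SE 0.0834, adjusted p 0.253). The largest change among its transcripts was on Bdnf-211, from 9.62 ± 4.29 to 18.8 ± 4.8 estimated CPM (SD, n = 6), which did not pass (0.97, adjusted p 0.176). None of 9 neurotrophin and receptor genes tested was called.

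The called transcripts of Homer1 were 2 of its short forms. Homer1 encodes scaffold proteins that link metabotropic glutamate receptors to calcium stores, and its short forms, which lack the coiled coil, compete with the long ones. Homer1-205, with 203 codons, was estimated at between 0.111 and 0.27 CPM in the 6 home cage libraries and between 6.77 and 11.3 CPM in the 6 shock and cue libraries (5.54, SE 0.414, adjusted p 7.21e-10). Homer1-204, with 186 codons, went from between 18.8 and 27.1 to between 47.5 and 71 estimated CPM (1.38, adjusted p 1.51e-06). The long transcripts Homer1-202 (370 codons) and Homer1-203 (366 codons) had log2 changes of 0.26 and -0.33 with adjusted p of 0.0732 and 0.504. Homer1-206 (233 codons) and Homer1-207 (193 codons), both low, were not called (adjusted p 0.891 and 0.932). Over the whole transcript table, 411 of 56523 transcripts were called, 0.727%. Transcript counts are the authors' estimates, which divide reads shared between transcripts.

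**Figure D3:**
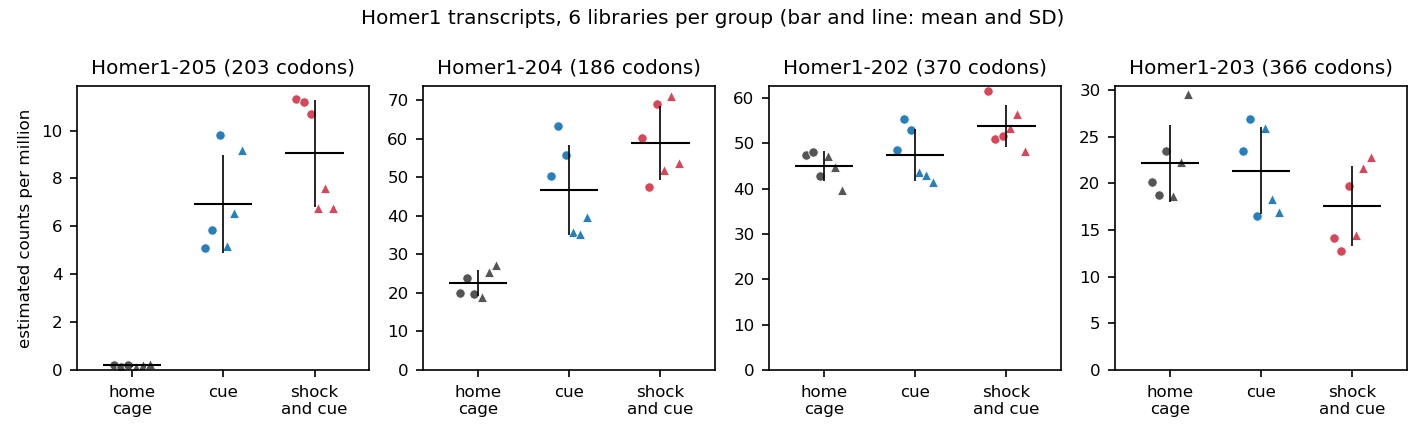
Estimated CPM (vertical axis) of 4 Homer1 transcripts in each library, by group, with mean and SD; the number of codons is in each title. The 2 transcripts with 203 and 186 codons are higher in all shock and cue libraries than in any home cage library, and those with 370 and 366 codons were not called.

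Long RNAs that hold microRNA genes moved in both directions. 1700016P03Rik (chr11:75172560-75177633, plus strand), which encloses the hairpins of miR-212 and miR-132, went from 1.23, 1.43 and 2.1 CPM to 4.17, 6.13 and 7.24 CPM without overlap (1.93, SE 0.166, adjusted p 5.87e-10). Lncppara (chr15:85653616-85707524, plus), which encloses those of let-7c-2 and let-7b, went from 10.4, 11.7 and 14.7 CPM to 6.06, 8.1 and 8.88 CPM (-0.64, SE 0.114, adjusted p 0.000509). The mature microRNAs inside them are printed because both host RNAs rank within the first 15 by p in their direction. They come from RefSeq (GRCm38.p6), with the seed, bases 2 to 8, in capitals. MiR-132-3p and miR-212-3p share 1 seed, and let-7c-5p and let-7b-5p another.
mmu-miR-132-3p: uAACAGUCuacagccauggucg
mmu-miR-212-3p: uAACAGUCuccagucacggcca
mmu-let-7c-5p: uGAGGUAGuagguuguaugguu
mmu-let-7b-5p: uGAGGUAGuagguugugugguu
These libraries were made from long polyadenylated RNA, so mature microRNAs were not measured. Reads on hairpin models were looked up after the values were seen. Those of miR-132 and miR-212 were too low to be tested. That of let-7c-2 had a mean of 1.1 CPM in home cage libraries and 0.601 CPM in shock and cue libraries (-0.87, adjusted p 0.00647), and that of let-7b, in the same host, had 1.05 and 0.781 CPM and was not called (-0.43, adjusted p 0.211). Outside these hosts, the miR-29c hairpin was called higher (0.52, adjusted p 0.000793) and that of miR-29b-2 was not (0.36, adjusted p 0.117). Whether the counting kept the strand is not given in the sources used here, and a gene on the other strand could add reads.

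Genes known as targets of the glucocorticoid receptor rose in part. Of 29 tested, 12 were called higher and none lower, with a median of 0.283. Sgk1, a kinase that regulates ion channels, went from 49.7, 54.1 and 60.8 CPM to 79.2, 86.3 and 116 CPM without overlap (0.77, SE 0.105, adjusted p 1.54e-05). Ddit4, an inhibitor of mTOR signalling, had 41.4, 43.7 and 47.6 CPM against 60.5, 62.6 and 66.5 CPM (0.52, SE 0.0524, adjusted p 2.68e-08), a tight and complete separation. Cdkn1a (0.82), Nfkbia (0.54), Tsc22d3 (0.45), Nedd9 (0.4), Pdk4 (0.4) and Arrdc2 (0.28) were also called, Arrdc2 with its call lost under 18 of 26 alternative settings (adjusted p up to 0.264). Arl4d, Dusp1, Per1 and Errfi1 belong to this list and to the early lists above. Fkbp5, a slower target, was not called (-0.17, SE 0.0875, adjusted p 0.319). In the transcript table Sgk1-201 was called, with means of 38.5 ± 2.9 and 73.3 ± 11.2 estimated CPM (SD, n = 6; adjusted p 4.29e-05). Sgk1-204, which starts further upstream, had means of 10.1 ± 1.18 and 9.5 ± 1.39.

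Chaperones rose by small amounts. Of 24 heat shock genes, 9 were called higher and none lower, with a median of 0.226. Hspa8, the constitutive HSP70, had 552, 607 and 662 CPM in the home cage and 687, 753 and 776 CPM after shock and cue (0.28, SE 0.0707, adjusted p 0.0198). Its cochaperones Dnajb1 (0.44), Dnajb4 (0.22) and Dnaja1 (0.2) rose, as did Fkbp4 (0.28), Chordc1 (0.27), Cacybp (0.25) and Ahsa1 (0.19), which work with HSP90. The call of Ahsa1 was lost under 17 of 26 alternative settings (adjusted p up to 0.26), that of Chordc1 under 9 and that of Cacybp under 8. Hspb1, a small heat shock protein, went from 1.86, 2.05 and 2.17 CPM to 2.95, 4.03 and 4.49 CPM without overlap (0.91, SE 0.252, adjusted p 0.0355). Its call was lost under 16 of the 26 settings, with an adjusted p of up to 0.216. Hspb1 lies downstream of the window chr5:135887669-135887918 (plus strand), shown because it holds 2 copies of GAANNTTC, 117 and 97 bases before the start.
Hspb1: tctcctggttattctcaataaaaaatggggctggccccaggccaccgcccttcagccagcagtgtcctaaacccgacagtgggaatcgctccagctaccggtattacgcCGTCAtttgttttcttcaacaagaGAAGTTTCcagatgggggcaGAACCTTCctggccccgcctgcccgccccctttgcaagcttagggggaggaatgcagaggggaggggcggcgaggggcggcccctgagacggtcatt
GAANNTTC was in 3 of 12 windows of the called heat shock genes, and in 5.06% of windows of all genes tested. Hspa1a and Hspa1b, near-identical copies whose reads may be divided between them, were not called (0.18 and 0.47, adjusted p 0.651 and 0.198).

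Of 19 endoplasmic reticulum chaperone genes tested, 2 were called higher, Pdia6 (0.52, adjusted p 0.0236) and Hsp90b1 (0.4, 0.0481), with a list median of 0.278. The call of Hsp90b1 was lost under 19 of 26 settings, with an adjusted p of up to 0.269. Hspa5, the main chaperone of that compartment, had 137, 157 and 168 CPM against 194, 253 and 317 CPM. Its groups did not overlap, and its adjusted p was 0.0545. Of 23 genes tested that belong to the Atf4 response, Atf4 (0.17) and Cebpg (0.15) were called higher and the amino acid transporter gene Slc7a5 (-0.19) lower. These calls were lost under 16, 13 and 14 of 26 settings, and that of Pdia6 under 8.

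The cold-inducible RNA-binding gene Cirbp fell from 62, 66.8 and 70.7 CPM to 39.6, 45.6 and 54.3 CPM without overlap (-0.55, SE 0.106, adjusted p 0.00195). Its retained-intron transcript Cirbp-204 had means of 5.18 ± 0.814 and 2.52 ± 0.204 estimated CPM (SD, n = 6; -1.04, adjusted p 0.000723). Rbm3, its close relative, was not called as a gene (-0.12, adjusted p 0.537). The non-coding transcript Rbm3-211 rose, from 2.59 ± 0.633 to 7.71 ± 1.17 estimated CPM (1.58, adjusted p 2.19e-06). Among 20 clock genes, 2 were called higher, Per1 and Nfil3, and 2 lower. Dbp, an output gene of the clock, went from 61.8, 64.5 and 68.6 CPM to 28.6, 43.1 and 49.5 CPM (-0.64, SE 0.154, adjusted p 0.0148), and Nr1d1, a repressor in the clock, fell by 0.39 (adjusted p 0.00535). The time of day of collection is not given in the sources used here.

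**Figure D4:**
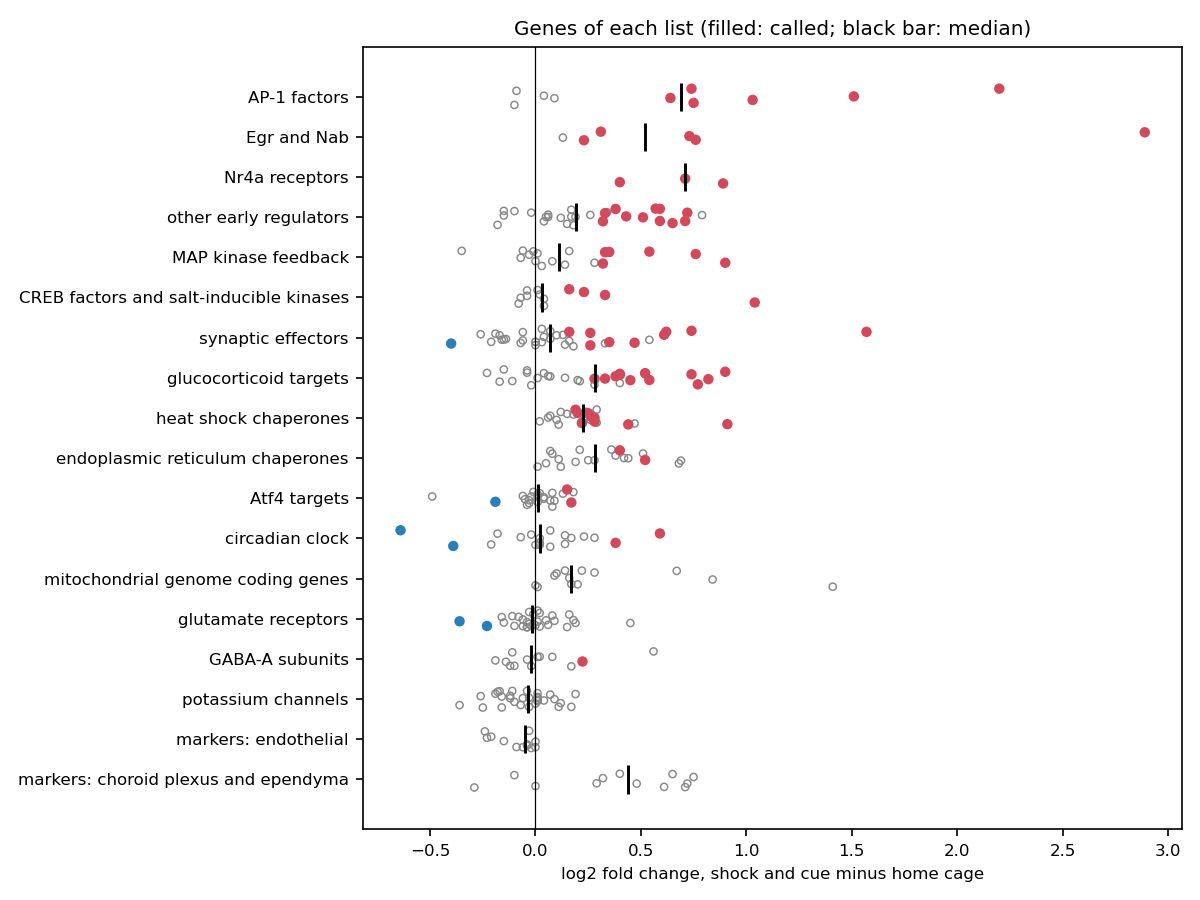
Log2 fold change of shock and cue minus home cage (horizontal axis) for every tested gene of 18 lists (rows); filled points were called, higher in red and lower in blue, open points were not, and the black bar is the list's median. The AP-1, Egr and Nr4a rows have medians of 0.691, 0.522 and 0.714, and no endothelial or choroid plexus marker was called.

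The 15 lower genes with the smallest p included several that are expressed in blood vessels. Sox18, a transcription factor of endothelial cells, went from 7.29, 7.83 and 8.09 CPM to 4.15, 4.72 and 5.16 CPM without overlap (-0.73, SE 0.123, adjusted p 0.000233). Foxq1, enriched in brain endothelium, went from 3.8, 4.51 and 5.87 CPM to 2.71, 2.8 and 3.3 CPM (-0.66, SE 0.112, adjusted p 0.000249). Pdgfb, the endothelial growth factor that holds pericytes, fell by 0.42 (adjusted p 0.000173), Pald1 by 0.34 (0.000617) and Apcdd1, an inhibitor of Wnt signalling at the barrier, by 0.28 (0.000234). Tfrc, the transferrin receptor that brings iron across the barrier and into neurons, went from 168, 171 and 184 CPM to 123, 136 and 152 CPM (-0.33, SE 0.0564, adjusted p 0.000249). A list of 20 endothelial regulators, put together after the values were seen and holding the 6 genes above, had 11 called lower and 1 higher, with a median of -0.256. Its other lower genes were Sox17 (-0.48), Sox7 (-0.42), Rasip1 (-0.38), Gata2 (-0.36) and Adgrf5 (-0.2). Klf2, which endothelial cells share with other cells, was the one called higher (0.72). Klf4 (0.26), Tal1 (0.13), Foxf2, Foxc1, Erg, Ets1, Fli1 and Axin2 were not called. The call of Sox7 was lost under 18 of 26 settings, that of Adgrf5 under 15 and that of Gata2 under 12.

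Beside these, none of 12 endothelial markers was called. Their median was -0.051, and 1 of the 12 had a log2 change above 0. Their summed level lay between 299 and 332 CPM in the home cage and between 274 and 299 CPM after shock and cue. Cldn5, a defining marker, had 34.7, 37.9 and 39.6 CPM against 26.1, 32.2 and 37.6 CPM (-0.23, adjusted p 0.224), while Pecam1 had 17.9 and 18.2 CPM at the median. Medians of the 16 cell type lists ran from -0.141 (CA1 and microglia, each with 1 member above 0) to 0.518 (neutrophil and acute phase). The part of endothelial cell content in the lower genes was not tested. In whole tissue, fewer cells of a type and less RNA per cell cannot be told apart.

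Genes of the Notch pathway, also looked up after the values were seen, were called lower in 3 of 15. Hes5, a transcriptional target of Notch in astrocytes and stem cells, went from 6.38, 7.39 and 8.1 CPM to 2.82, 3.89 and 4.67 CPM without overlap (-0.92, SE 0.173, adjusted p 0.00122). Notch3, a receptor of mural cells, fell by 0.4 and Hey1 by 0.17, the call of Hey1 being lost under 17 of 26 settings. Wnt9a fell by 0.68 (adjusted p 0.0407) and the interferon-induced gene Ifitm7 by 0.67 (0.0432). The call of Wnt9a was lost under 13 of 26 settings, with an adjusted p of up to 0.5, and that of Ifitm7 under 16 of 25. The unannotated model Gm37310 (chromosome 15) had the largest decrease, from 1.98, 2.33 and 3.75 CPM to 0.576, 0.983 and 1.28 CPM (-1.39, SE 0.186, adjusted p 7.68e-06), and A930036I15Rik fell by 1.27. Zdhhc8, an enzyme that palmitoylates synaptic proteins (-0.37), the synaptic adhesion gene Lrfn3 (-0.27), the actin regulators Fmnl3 (-0.28) and Coro1b (-0.19), the endosomal exchanger Slc9a9 (-0.31), the splicing regulator Raver1 (-0.21) and Gm15743 (-0.7) complete the lower genes picked by p or fold.

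Few receptor and channel genes of neurons were called. Of 30 glutamate receptor genes and auxiliary subunits, 2 were called lower. Cacng8, an auxiliary subunit of AMPA receptors, went from 100, 107 and 111 CPM to 75.3, 82.5 and 90.1 CPM without overlap (-0.36, SE 0.0675, adjusted p 0.000911). Grin1, the obligatory NMDA receptor subunit, went from 510, 540 and 563 CPM to 392, 477 and 500 CPM (-0.23, SE 0.0555, adjusted p 0.0146). Of 13 GABA-A subunits, Gabra2 was called higher (0.22, adjusted p 0.00663). None of 30 potassium channels, 12 interneuron peptides and 36 nuclear complex I subunits was called, and neither was any tested gene of the corticotropin-releasing hormone and related stress peptide list. Of 20 nucleolar genes, Wdr12 was called (0.13, adjusted p 0.019), a call lost under 9 of 26 settings.

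No marker of any of 16 cell type lists was called. Dentate granule (702 to 918 CPM after shock and cue), CA1 (1140 to 1390) and CA2 and CA3 (485 to 548) marker sums were present in every library. Markers of choroid plexus and ependyma varied most. Their sum (lowest, median and highest) was 71.6, 112 and 3200 CPM in the home cage and 142, 603 and 3460 CPM after shock and cue. After the cue alone it was 65.9, 618 and 4100 CPM. The groups thus overlapped with unlike medians. The list median of the log2 change was 0.44, and 9 of the 12 markers lay above 0. With the choroid plexus level as a covariate, 417 genes were called higher and 196 lower.

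Among called genes, the 2 largest folds belonged to pituitary hormone genes. Gh measured 2.53, 0.134, 0.0277, 0.0885, 0.416 and 0.0521 CPM in the home cage libraries and 5.29, 2.62, 50.5, 6.45, 53.5 and 11.4 CPM after shock and cue. The groups did not overlap, by a margin of 2.62 against 2.53 CPM, and 2 shock and cue libraries, 37C and 39B, held most of the reads (5.22, SE 1.38, adjusted p 0.0287). Prl ranged from 0.0536 to 0.543 CPM and from 0.393 to 6.91 CPM, with overlap (3.83, SE 1.07, adjusted p 0.0403). Libraries 37C and 39B were also the highest for Prl and for Pomc (8.69 and 5.53 CPM). Pomc and Lhb, the other tested genes of a pituitary list put together after the values were seen, were not called (adjusted p 0.248 and 0.689). Lhb had 1.04 CPM in 37C and 0.432 CPM in 39B, and up to 0.47 CPM in the home cage. In ventral hippocampus labelled 6NJ, Gh and Prl were called higher too (4.22 and 4.1, both adjusted p 0.0322). In the dorsal cue group they were not called against the home cage (2.68 and 1.35). In the main comparison the calls of Gh and Prl were lost under 14 of 26 settings each. Without libraries 37C and 39B Gh was not called (3.49, adjusted p 0.259), and the same comparison called 249 genes. Arc had a log2 change of 1.53 without them, with an adjusted p of 8.63e-09. The source of the hormone reads was not tested.

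The cue group allows shock and cue to be set against the cue alone. The 2 groups share no code number, so shock and number cannot be told apart. Against the same home cage libraries, the cue group had 463 genes called (2.36%), 344 higher (1.75%) and 119 lower (0.606%). Since both comparisons share the home cage libraries, only their values are set side by side. Arc had a median of 319 CPM after the cue and 289 CPM after shock and cue, and the direct difference was -0.02 (95% interval -0.26 to 0.22). Egr2 had medians of 7.18 and 6.86 CPM (difference -0.15, interval -0.54 to 0.23), and Fos 26.9 and 25.6 CPM (0.02, interval -0.42 to 0.46). For Sgk1 the difference was 0.08 (-0.13 to 0.29), for Sox18 0.01 (-0.25 to 0.26) and for Cirbp -0.14 (-0.36 to 0.08).

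Over all genes, edgeR called no difference between shock and cue and cue alone. At an unadjusted p under 0.05 there were 1399 genes (7.12%), the smallest adjusted p was 0.696 (Hhex), and DESeq2 also called 0. The 95% interval of this difference had a median half-width of 0.13 on the log2 scale over the 451 genes called higher against the home cage and 0.11 over the 250 called lower. Unadjusted, it excluded 0 for 80 of the 451 (78 above, 2 below) and for 48 of the 250 (1 above, 47 below). These genes were picked with the same shock and cue libraries, which favours those directions, so the counts are not a test. Examples picked after their values were seen are the intervals of Cdkn1a (0.3, interval 0.04 to 0.56), Crem (0.16, 0.04 to 0.28), Spred1 (0.12, 0.03 to 0.22) and Maff (0.45, 0.02 to 0.88), which lay above 0 before adjustment, and that of Pald1 (-0.18, -0.3 to -0.05), which lay below it. None of the 5 passed the adjustment.

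**Figure D5:**
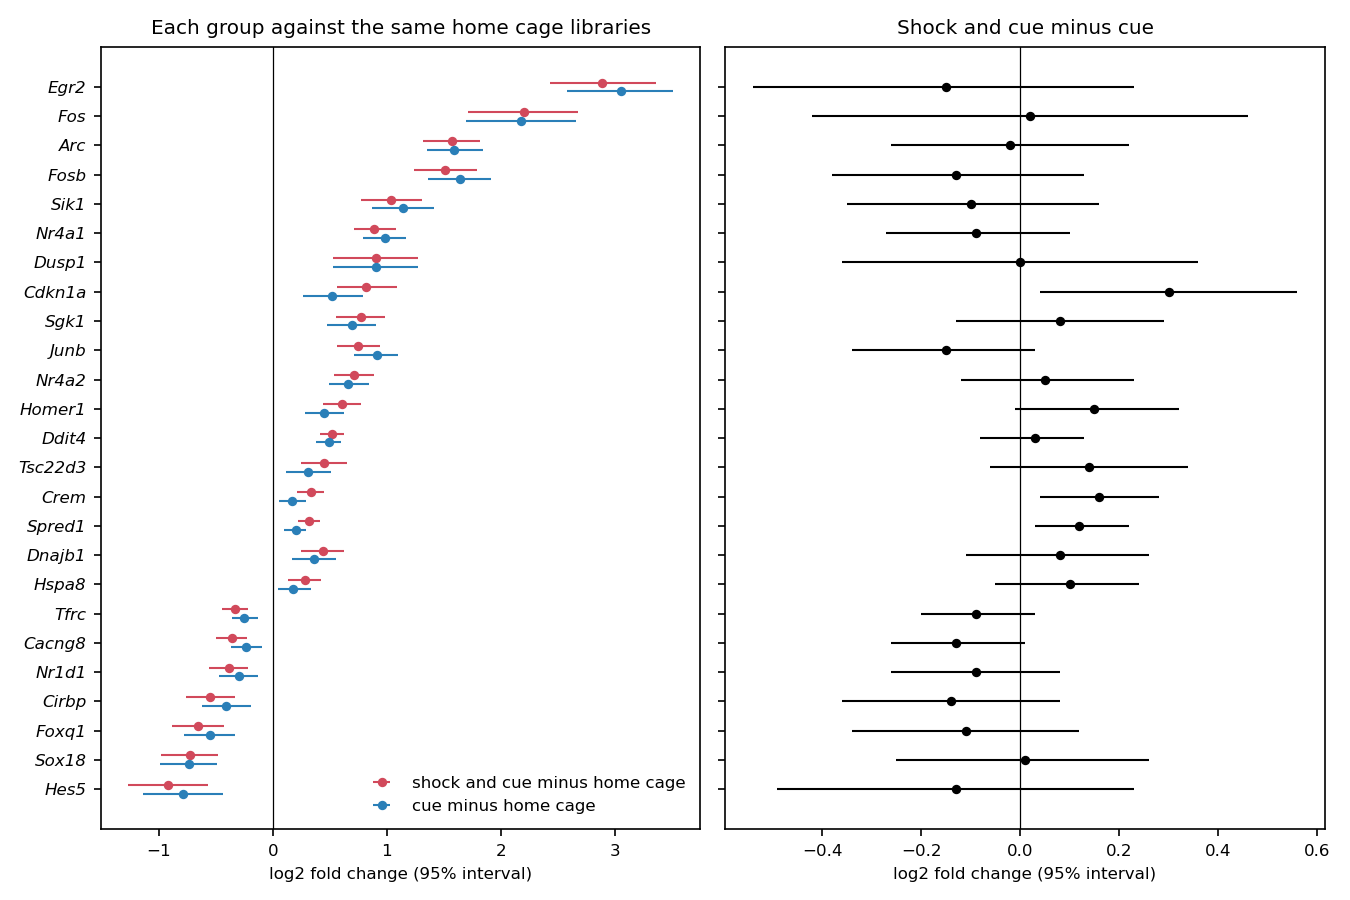
Left, log2 fold change with 95% interval (horizontal axis) of shock and cue minus home cage (red) and cue minus home cage (blue) for 25 genes (rows), both against the same 6 home cage libraries. Right, the direct difference of shock and cue minus cue, whose unadjusted interval excludes 0 for Cdkn1a, Crem and Spred1; on this axis Arc is at -0.02 and Egr2 at -0.15.

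The same contrast in dorsal hippocampus labelled 6J gave 1.74 for Arc, 3.09 for Egr2, 2.47 for Fos, 0.49 for Sgk1 and -0.5 for Sox18, with 345 genes called. The test of the difference between the 2 strain labels called 0 genes, with 860 at an unadjusted p under 0.05 (4.38%) and a smallest adjusted p of 0.436; DESeq2 called 0 as well. Hspb1, at 0.91 under the 6NJ label and 0.06 under the 6J label, is thus not shown to differ between labels, and neither is Tmem252 (1.37 and 0.17). In ventral hippocampus labelled 6NJ, 1841 genes were called, with 1.58 for Arc, 2.82 for Egr2, 2.31 for Fos, 0.76 for Sgk1 and -0.66 for Sox18. The test of the difference between regions called 0 of 20255 genes, with 1401 at an unadjusted p under 0.05 (6.92%) and 0 by DESeq2. The different counts of called genes are therefore not shown to be different responses.

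The shock and cue libraries carry the code numbers 37 and 39, and the home cage libraries 41 and 42, with 3 libraries to each number. The meaning of the number is not given, and no number holds both conditions, so number and condition cannot be told apart. Within the shock and cue group, several early genes had higher means under 37 than under 39. Fos had means of 34.6 and 20.9 CPM, Egr2 7.96 and 5.26 CPM, Fosb 13.6 and 9.08 CPM and Arc 326 and 256 CPM. Of 14 called AP-1, Egr, Nab and Nr4a genes, 8 had all 3 libraries numbered 37 above all 3 numbered 39, and none had the reverse; over all genes tested, 888 and 891 of 19647 were so ordered. The 14 genes were measured in the same libraries and are not 14 independent results. A test of 37 minus 39 called 0 genes, with 897 at an unadjusted p under 0.05, so a difference between the numbers is not shown. For Fos, Egr2, Fosb and Arc the means under 39 lay above the home cage means, as they must where the groups do not overlap. The home cage means were 5.9 and 6.22 CPM for Fos and 102 and 93.8 CPM for Arc under 41 and 42. Leaving out number 37 left 139 called genes, and leaving out 39 left 324.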

How the data were processed

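RNA of dissected hippocampus was made into stranded mRNA libraries and sequenced as single reads of 75 bases, per the labels' protocols. The submitters' processing notes name HISAT2, featureCounts, kallisto, DESeq2, FastQC and the build GRCm38, with no versions or order. The deposited gene table holds whole-number counts per gene. The deposited transcript table holds estimated counts, which were rounded. Groups were read from the titles. The test was the robust quasi-likelihood F test of edgeR 4.0.16 (R 4.3.3), after filterByExpr and TMM scaling, on all 36 dorsal libraries with 1 mean per group, and regional differences on all 72. Benjamini-Hochberg adjustment ran over all genes tested, with a threshold of 0.05. SE is the log2 fold change divided by the square root of F. CPM values are scaled by TMM. Counts were simulated with the real means and the same spread for every gene, changing only genes with a mean above 1 CPM. In them, 90% of genes raised and 80% of genes lowered by 0.5 were called, and 13 of 19186 unchanged genes. Gene names come from GENCODE M21 (55141 of 55401 IDs matched) and promoters and microRNAs from RefSeq.

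Named genes were, for this comparison, the 15 higher and 15 lower with the smallest adjusted p, the 8 each way with the largest fold at a mean of at least 1 CPM, and members of 39 lists (545 of 556 symbols tested); others, the 4 added lists among them, were chosen after their values were seen. Ccn1 and Ccn2 replaced older symbols in 1 list after values were seen. The members and lists were chosen with earlier results of these data known. Alternatives were DESeq2 1.42.0, RLE scaling, 2 other filters, fewer libraries, marker covariates and limma 3.58.1 (voom), where code numbers were a random effect.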

Additional observations from a re-analysis of the deposited data

Results flagged for a closer look

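Among the 37 genes picked by p or fold in the main comparison, each group of 6 libraries was searched for a single library set apart from the other 5, by Dixon's ratio above its 95% critical value. Chance flags about 1 group in 20. Of 74 groups, 4 were set apart, all by their highest home cage library. Gm37310 had 3.75 CPM in 42C, against 1.98 to 2.55 CPM in the other home cage libraries. Tfrc had 184 CPM in 42A, against 168 to 173 CPM. Gh had 2.53 CPM in 41A, against 0.0277 to 0.416 CPM, and Prl 0.543 CPM in the same library, against 0.0536 to 0.182 CPM. For Gm37310 and Tfrc these high home cage values lie on the side away from the shock and cue libraries. For Gh and Prl they lie toward them.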

How the results depend on the processing

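The 701 genes called in the main comparison became 385 without a low-count filter (273 higher, 112 lower), 139 without number 37, 324 without 39, 170 without 41 and 276 without 42, each of which removes 3 libraries. Leaving out 1 library at a time gave 454 to 768 calls; the count fell by more than 1.5 times without 37C (459), 39B (454) or 41A (467). Without 37C and 39B together, chosen after seeing the data, 249 were called. With only the libraries compared in the fit, 555 were called, and 453 of these were among the 701. DESeq2 called 580 higher and 408 lower. Cue minus home cage went from 463 to 286 without the filter and to 268 with only the libraries compared, and the transcript count from 411 to 1106 in DESeq2. The 0 calls for shock and cue minus cue, for the strain labels and for the regions remained 0 under each alternative run. Of 109 called genes in the lists or picked by p or fold, none changed sign under any of 26 alternatives and 42 were called under all of them. The replicate block, the code shared by a dorsal and a ventral library, gave 0 genes for the difference between regions; the codes were not shown to pair, since the correlations of deviations ran from -0.265 to 0.634 over 12 codes and 4 of 12 correlated best with their own code. No paired analysis was possible within the main comparison because its groups share no code. Genes changed by 0.5 on the log2 scale were mostly recovered in simulation. The simulation gave every gene the same spread, so it does not measure the sensitivity for real genes, and smaller changes may be missed.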

Other observations

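Zinc finger genes formed a further group, chosen after the values were seen. Of 361 protein-coding genes with symbols starting with Zfp, 29 were called higher (8.03%) and 3 lower, and 258 had a log2 change above 0, with a median of 0.057. Over all 15377 protein-coding genes tested, 384 were called higher (2.5%) and 7781 lay above 0. Of 40 Zbtb genes, 6 were called higher and 1 lower. Zfp948 had means of 14 and 18.4 CPM, Zfp975 3.62 and 5.63 CPM, and Zfp568 3.38 and 5.12 CPM. Among the called lower members of both families, Zfp46 had the largest fold, with means of 61.9 and 44.2 CPM.

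The groups below were also chosen after the values were seen. Of 23 histone genes with symbols starting with Hist, 6 were called higher (26.1%, against 2.5% of protein-coding genes) and none lower, with a median of 0.395. Among those called, Hist1h4k, Hist1h1d and Hist1h3d were low, with home cage means of 0.296, 0.271 and 0.581 CPM. Hist2h3c1 had means of 4.68 and 7.76 CPM. None of 74 cytosolic ribosomal protein genes was called in edgeR, and 73 of them had a log2 change above 0, with a median of 0.09. Both mitochondrial ribosomal RNAs were called higher, mt-Rnr1 with its call lost under 7 of 26 settings and mt-Rnr2 under 11, the removal of 39B or of 42C among them for both. Mt-Rnr1 ranged from 2860 to 3760 CPM in the home cage and from 3470 to 5500 CPM after shock and cue (0.39, adjusted p 0.0177). Their direct differences from the cue group were 0.3 (95% interval 0.1 to 0.5) for mt-Rnr1 and 0.29 (0.09 to 0.48) for mt-Rnr2, neither passing adjustment. The share of reads on mitochondrial genes lay between 6.03% and 8.64% after shock and cue and between 5.6% and 7.11% in the home cage.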
